A study of Mus musculus with 6 samples.

Results

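RNA of the lipid droplet coat of mouse fat was followed through grafting in 6 genes. These were the perilipin genes Plin1, Plin2 and Plin4, the CIDE genes Cidea and Cidec, and Hilpda. They were chosen by gene name, and all 6 were found among the 12163 genes of the deposited table. Fat taken 7 days after grafting (3 libraries) was compared with fat before grafting (3 libraries). Every library is labelled wild type C57BL/6, a common inbred mouse strain, and total RNA was sequenced from whole fat tissue. The study's design text calls the libraries biological replicates, while depot, site of the graft, sex and age are not in the labels. A graft can hold transferred and host cells, and bulk RNA does not separate them.

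A lipid droplet is a core of triglyceride under a single layer of phospholipid, and its surface proteins govern how the core is stored and released. Plin1 coats the large droplet of fat cells and holds lipases back until adrenergic signals lead to its phosphorylation, whereas Plin2 coats droplets in most other cells, macrophages among them. Plin4 is a perilipin of white fat that binds small, young droplets. Cidec (also called Fsp27) and Cidea sit where droplets touch and let lipid pass from the smaller to the larger, Cidea being typical of brown and beige fat. Hilpda is a small droplet protein that is induced by hypoxia and inhibits the lipase encoded by Pnpla2.

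Plin1, Plin4, Cidec and Cidea fell in grafts, and Plin2 and Hilpda rose. Mean levels before grafting were 17.5 (Plin4), 31.3 (Plin1) and 46.8 (Cidec) times those in grafts, while Cidea had 1 read in the 3 grafts together. Mean levels in grafts were 2.79 (Plin2) and 34.4 (Hilpda) times those before grafting. In bulk tissue, fewer fat cells and less RNA of these genes per fat cell cannot be told apart. All 6 genes passed an adjusted p of 0.05 in limma, 2 higher and 4 lower. The table holds almost no gene near a fold of 1 (51 of the 10854 tested genes had a log2 fold change within 0.25 of 0), so such a count says little by itself. Of the tested genes 80.4% were called, 41.3% higher and 39.2% lower. In the same way, graft values lay outside the range before grafting for all 6 genes and for 97.6% of tested genes. Values are normalized counts, the reads of a gene divided by the library's size factor, which was close to 1 in every library.

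**Figure D1:**
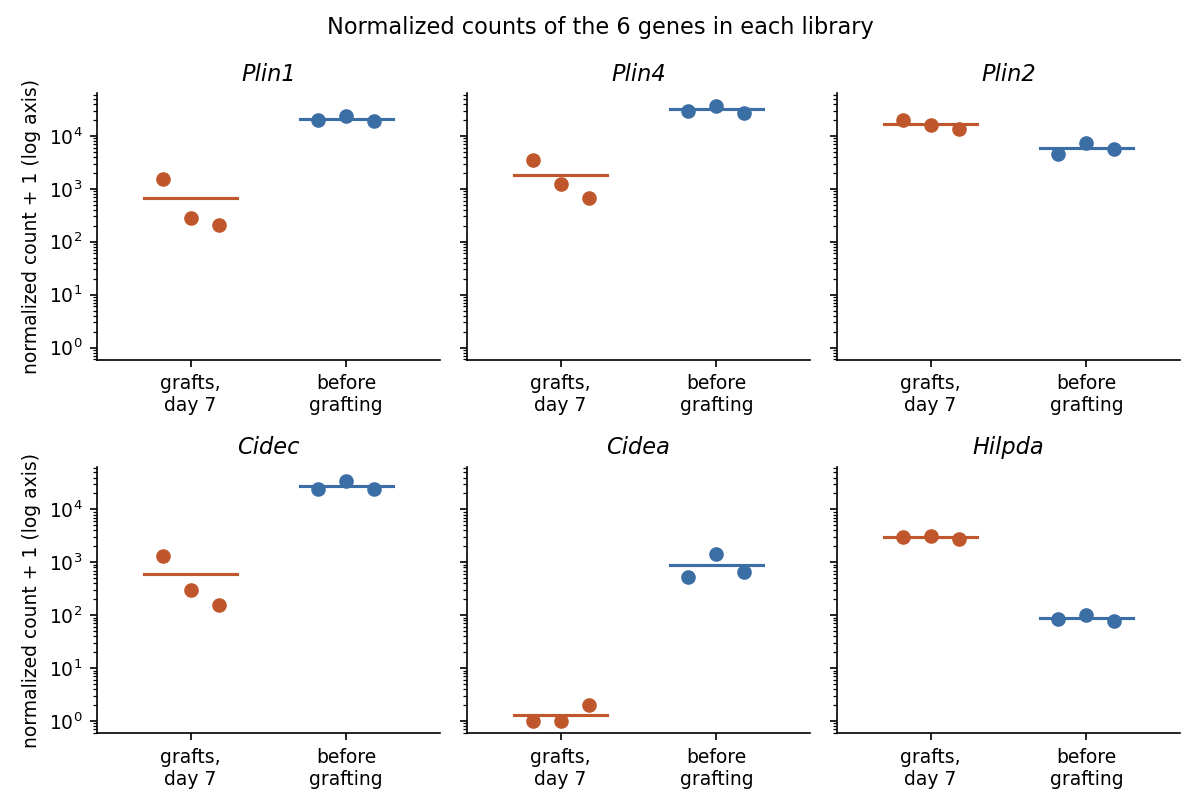
Normalized counts plus 1 of the 6 genes (log axis), with 1 point per library in replicate order and a line at each group's arithmetic mean, grafts at day 7 left and fat before grafting right. Plin1, Plin4, Cidec and Cidea are lower in every graft, and Plin2 and Hilpda are higher in every graft.

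The tissue labels were read against marker lists. Before grafting the libraries were rich in fat cell transcripts: Adipoq, the fat cell hormone adiponectin, averaged 380.2 ± 245.8 normalized counts in grafts and 33177 ± 5056 before grafting (SD, n = 3 each). All 16 genes of a fat cell list passed the test as lower in grafts, against 39.2% of all tested genes. Their median log2 fold change was -6.66, against 0.28 over all tested genes. Markers of macrophages summed to 192796 to 202819 normalized counts in grafts and 22531 to 25585 before grafting. Of 8 skeletal muscle markers none is listed in the table. Of 6 epithelial markers Cdh1 alone is listed, with sums of 51.2 to 89.0 in grafts and 29.5 to 38.5 before grafting. The table holds few genes that differ little between the groups, so an unlisted marker may still be expressed at a like level in both. The muscle and epithelial lists therefore cannot show whether those tissues were absent. Reads in listed genes numbered 13027776 to 15924559 per library.

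Plin2 (ENSMUSG00000028494, chromosome 4, 86648386 to 86670060, minus strand, GRCm38) had 19663, 16264 and 13569 normalized counts in grafts, against 4537, 7436 and 5776 before grafting. Every graft lay above every library before grafting, and the grafts spread 1.45-fold from lowest to highest. The means were 16499 ± 3054 in grafts and 5916 ± 1455 before grafting (SD, n = 3 each), a log2 fold change of 1.49 (SE 0.20, limma adjusted p = 0.0011). This size was ordinary in the table: 18.3% of tested genes had a higher fold change.

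Hilpda (ENSMUSG00000043421, chromosome 6, 29272488 to 29275446, plus strand) had 2995, 3107 and 2798 normalized counts in grafts, against 82.8, 99.3 and 76.7 before grafting. The grafts were close to each other, with a coefficient of variation of 5.27%. The means were 2967 ± 156 in grafts and 86.3 ± 11.7 before grafting (SD, n = 3 each), and the log2 fold change of 5.09 (SE 0.13, limma adjusted p = 5.97e-07) was exceeded by 1.84% of tested genes. It ranked 201 from the highest of 10854.

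RefSeq windows of 300 bases around gene starts (250 before, 50 after, build GRCm38.p6) were matched for 5 of the 6 genes, at 7 start sites. Each was searched on both strands for ACGTG and GCGTG, the core read by hypoxia-inducible factors, for AGGTCA, the core read by nuclear receptors such as Pparg, and for CACGTG, an E-box that contains ACGTG on both strands. Plin2 and Hilpda, which rose, are shown because they hold most of the matches. The bases before the Plin2 start, chr4:86670060-86670309 on the minus strand, hold AGGTCA and GCGTG once each on the opposite strand, in capitals here.
Plin2, 250 bases before the start: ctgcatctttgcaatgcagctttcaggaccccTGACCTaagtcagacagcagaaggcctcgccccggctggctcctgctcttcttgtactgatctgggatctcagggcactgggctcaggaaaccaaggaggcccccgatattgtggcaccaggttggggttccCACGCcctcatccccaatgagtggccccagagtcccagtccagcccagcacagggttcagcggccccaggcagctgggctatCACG
The last bases of that run begin a CACGTG that crosses the start site, shown in capitals in a stretch of 30 bases, chr4:86670046-86670075 on the minus strand.
Plin2 E-box: cagctgggctatCACGTGgctcggaggctt
The Hilpda windows hold 3 hypoxia cores on the plus strand, in capitals in the stretches chr6:29272502-29272531, chr6:29272570-29272599 and chr6:29272605-29272634. RefSeq gives Hilpda starts at 29272488 and 29272626.
Hilpda core 1: tcaaccgcgagccGCGTGctttccgtgact
Hilpda core 2: ggatggccagcggACGTGccccagggcgag
Hilpda core 3: gcaggttcggtacGCGTGcgcagtctccga
Such letters are common: of 32851 windows, 43.8% hold ACGTG or GCGTG, 16.3% hold AGGTCA and 7.15% hold CACGTG. The windows of Plin1 and Plin4 hold none of these letters, and each of the 2 Cidec windows holds GCGTG once. A match describes the sequence, and binding was not measured.

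Hypoxia targets were read beside Hilpda. Of 15 genes commonly induced by hypoxia, 13 were tested, and Pdk1 and Egln1 are not listed. Over all tested genes 41.3% were called higher and 39.2% lower, with a median log2 fold change of 0.28. Of the 13 targets 11 passed the test as higher in grafts and 1 as lower, with a median log2 fold change of 1.79. With ribosomal protein genes at no change, 8 were called higher and 2 lower, with a median of 1.05. Their sums were 33697 to 40724 normalized counts in grafts and 16074 to 19532 before grafting. Egln3, an oxygen-sensing prolyl hydroxylase, rose by 5.70 on the log2 scale, Slc2a1, a glucose transporter, by 4.17 and Ero1l, an oxidase of the endoplasmic reticulum, by 3.24 (adjusted p = 1.65e-06, 6.76e-07 and 1.05e-06 in limma). Bnip3, a mitophagy receptor, fell by 0.55 (adjusted p = 0.0354), and Vegfa, an angiogenic factor, had a log2 fold change of -0.50 (adjusted p = 0.246). Whether low oxygen had a part in the Hilpda change was not tested.

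Macrophage and neutrophil markers moved in the direction of Plin2 and Hilpda. Of 12 macrophage markers 10 were tested. Cd163 and Mrc1 are not listed and may be expressed at a like level in both groups. Of the 10, 9 passed the test as higher in grafts and none as lower, with a median log2 fold change of 3.08. Among all tested genes 41.3% were called higher. Adgre1, the F4/80 antigen, averaged 7010 ± 2294 normalized counts in grafts and 851.8 ± 105.8 before grafting (SD, n = 3 each). Cd68, a lysosomal protein of macrophages, averaged 5368 ± 330 in grafts and 822 ± 106 before grafting. Of 10 markers of lipid-associated macrophages 9 were called higher, and their sums were 56123 to 72805 in grafts and 7598 to 9578 before grafting. Trem2, the lipid receptor of such macrophages, averaged 1969 ± 373 normalized counts in grafts and 46.2 ± 17.7 before grafting. All 8 neutrophil markers were called higher, with sums of 58340 to 93629 in grafts and 729.4 to 884.3 before grafting. The part of these cells in the Plin2 and Hilpda changes was not tested.

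Plin1 (ENSMUSG00000030546, chromosome 7, 79720218 to 79732903, minus strand) had 1519, 286.1 and 205.8 normalized counts in grafts, against 20161, 23735 and 19101 before grafting. The libraries before grafting were alike, while graft 1 kept 7.38 times the level of graft 3. The means were 670.1 ± 735.8 in grafts and 20999 ± 2428 before grafting (SD, n = 3 each), 31.3 times as much before grafting. The log2 fold change was -5.54 (SE 0.65, limma adjusted p = 0.000659), and 1.28% of tested genes had a lower one. Without graft 1 the graft mean was 245.9, so that library decides the mean but not the direction.

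Plin4 (ENSMUSG00000002831, chromosome 17, 56100591 to 56109803, minus strand) had 3514, 1254 and 667.7 normalized counts in grafts, against 30194, 37387 and 27491 before grafting. Graft 1 was again the highest graft, at 5.26 times graft 3. The means were 1812 ± 1503 in grafts and 31690.5 ± 5115 before grafting (SD, n = 3 each), a log2 fold change of -4.45 (SE 0.52, limma adjusted p = 0.000629), with a graft mean of 960.8 without graft 1. Its 3′ end overlaps that of Hdgfl2 on the other strand by 17 bases.

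Cidec (ENSMUSG00000030278, chromosome 6, 113424634 to 113435760, minus strand) had 1333, 293.8 and 154.3 normalized counts in grafts, against 24387, 34164 and 24769 before grafting. Graft 1 stood at 8.64 times graft 3, a wider gap than for Plin1 or Plin4. The means were 593.6 ± 643.9 in grafts and 27773 ± 5538 before grafting (SD, n = 3 each), a log2 fold change of -6.12 (SE 0.68, limma adjusted p = 0.000483), and the graft mean without graft 1 was 224.1. Of tested genes 0.774% had a lower fold change.

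Cidea (ENSMUSG00000024526, chromosome 18, 67343564 to 67367794, plus strand) was all but undetected in grafts, at 0, 0 and 0.989 normalized counts, against 529.5, 1456 and 646.2 before grafting. The graft value is 1 read, against 2631 reads in the 3 libraries before grafting. Before grafting the mean was 877.2 ± 504.4 (SD, n = 3), and replicate 2 held 2.75 times the level of replicate 1. The ratio of these reads after correction for library size, before grafting over grafts, was 2648 with an exact 95% interval of 474.9 to 104642, which covers counting error only. limma called the gene lower (adjusted p = 6.35e-06). Cidea overlaps the antisense gene B430212C06Rik by 540 bases, and that gene averaged 22.4 ± 6.3 normalized counts in grafts and 81.7 ± 15.3 before grafting. No source says whether the counting used strand, so a few of these reads cannot be assigned with certainty.

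**Figure D2:**
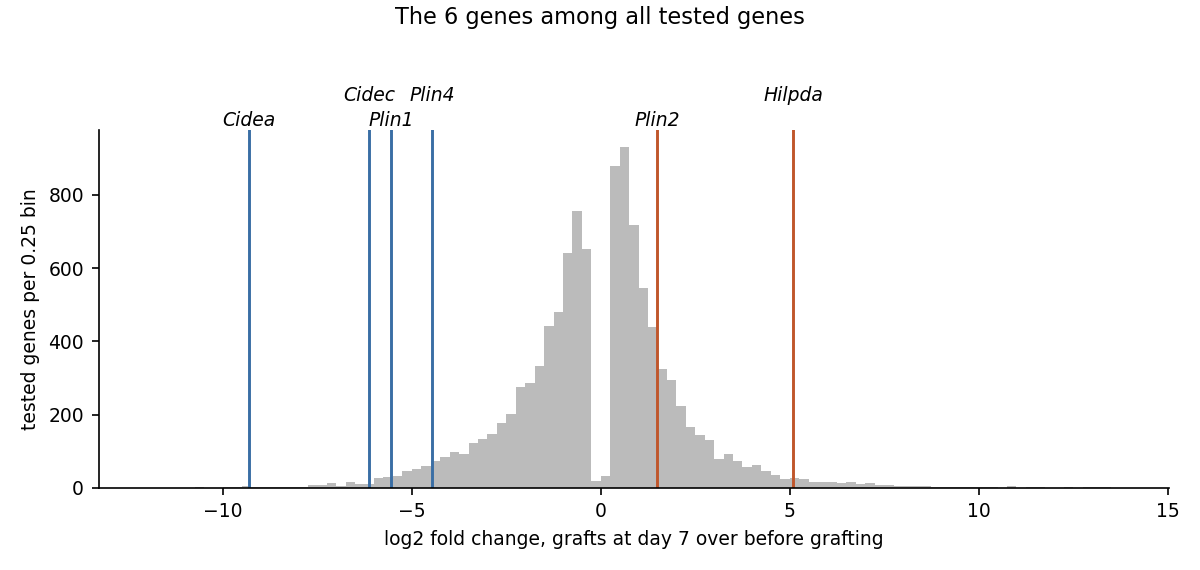
Histogram of the log2 fold change (grafts at day 7 over before grafting, x axis) of the 10854 tested genes, with the number of genes on the y axis and a vertical line at each of the 6 genes. Cidea, Cidec, Plin1 and Plin4 lie in the low tail, at ranks 5, 85, 140 and 345 from the lowest, Hilpda lies in the high tail and Plin2 lies within the bulk of the higher genes.

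Graft 1 was the highest graft for Plin1, Plin4 and Cidec, and it was also the graft with the most fat cell transcript. The fat cell index, the median log2 level of the 16 genes in each library, was 7.90, 4.94 and 5.63 in grafts, against 12.62, 12.93 and 12.77 before grafting. Each gene's level was therefore also read relative to the index, in log2 units. With 3 libraries against 3 the smallest p an exact two-sided permutation test can give is 0.1, so none of these 6 comparisons could pass 0.05.

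Cidec was the gene whose level relative to the index overlapped between the groups: it stood 2.46 ± 0.81 above it in grafts and 1.97 ± 0.16 above it before grafting (SD, n = 3 each, exact permutation p = 0.4). Plin1 stood 2.65 ± 0.58 above the index in grafts and 1.58 ± 0.12 before grafting, and Plin4 stood 4.33 ± 0.89 above it in grafts and 2.16 ± 0.17 before grafting. For both, every graft lay above every library before grafting (exact permutation p = 0.1 each, 0.12 adjusted over the 6 genes). Cidea went the other way, at -5.83 ± 1.80 in grafts and -3.14 ± 0.63 before grafting, a difference of -2.68 that shrank to -0.72 with a pseudocount of 5 in place of 1 (exact permutation p = 0.7), since the graft values are near 0. Relative to the index Plin2 was 8.11 higher and Hilpda 11.71 higher in grafts. The index itself differed by -6.62 (grafts minus before grafting), and both differences include that fall. A gene of unchanged level would also stand higher relative to the index, by the size of that fall.

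**Figure D3:**
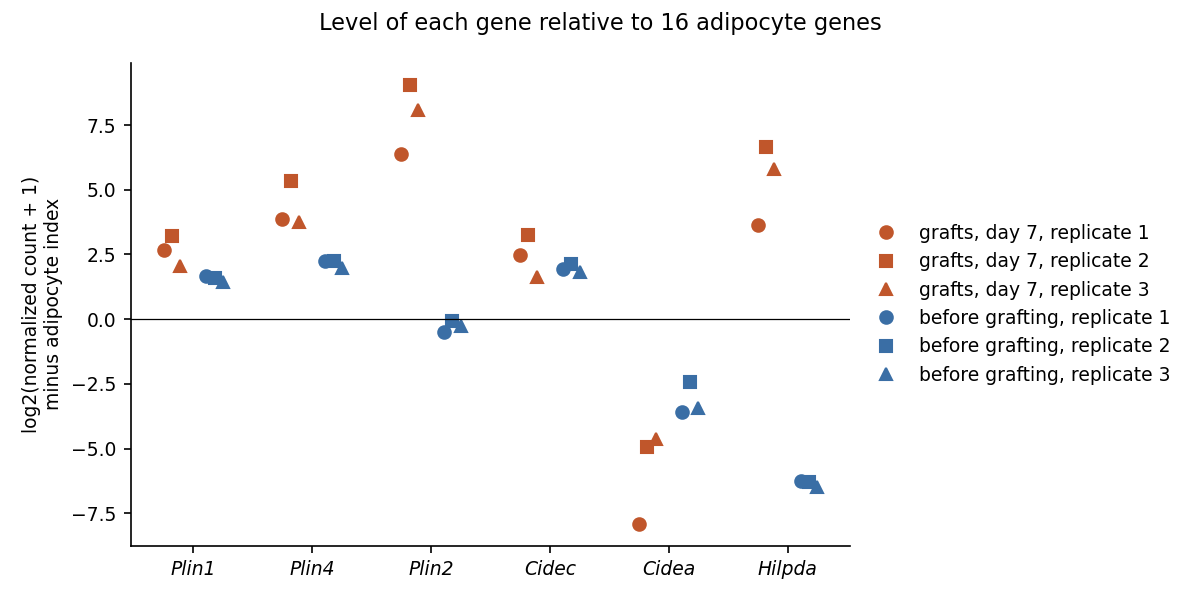
Level of each of the 6 genes relative to the fat cell index (log2 units), with 1 point per library, marker shapes for replicates and a line at 0 where a gene equals the index, grafts at day 7 left and fat before grafting right. The Cidec groups overlap, Plin1 and Plin4 are higher in each graft, Cidea is lower in each graft, and Plin2 and Hilpda are far higher.

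The makeup of the RNA of the 6 genes changed, while droplets and their proteins were not measured. Per kilobase of gene model, which allows genes to be compared, the 6 genes summed to 9967, 7885 and 6644 normalized counts in grafts, against 24524, 33442 and 24482 before grafting. Plin2 made up 57.7% ± 1.3 of that sum in grafts and 6.11% ± 0.75 before grafting (SD, n = 3 each), a difference of 51.6 percentage points (exact permutation p = 0.1, the smallest possible). Hilpda made up 33.7% ± 5.7 in grafts and 0.286% ± 0.019 before grafting. Cidec supplied 3.49% ± 3.24 in grafts and 54.4% ± 0.7 before grafting, Plin4 3.53% ± 2.28 in grafts and 20.03% ± 1.11 before grafting, and Plin1 1.57% ± 1.48 in grafts and 16.6% ± 1.2 before grafting.

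Plin2 and Hilpda moved to the top of the order of levels. In grafts the mean levels per kilobase were 4698 ± 869 for Plin2, 2690 ± 142 for Hilpda, 319.8 ± 346.9 for Cidec, 313.6 ± 260.2 for Plin4, 144.1 ± 158.3 for Plin1 and 0.283 ± 0.491 for Cidea (SD, n = 3). Cidec exceeded Plin4 in graft 1 and lay below it in the other grafts, and Plin1 was the lowest of these 3 genes in every graft. Before grafting they were 14964 ± 2984 for Cidec, 5486 ± 885 for Plin4, 4517 ± 522 for Plin1, 1685 ± 414 for Plin2, 753.6 ± 433.4 for Cidea and 78.2 ± 10.6 for Hilpda. Plin4 lay above Plin1 in each of the 3 libraries before grafting. Among all 12163 genes of a library, Plin2 ranked 110 to 168 from the highest per kilobase in grafts and 263 to 411 before grafting. Cidec ranked 1094 to 5450 in grafts and 23 to 30 before grafting.

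**Figure D4:**
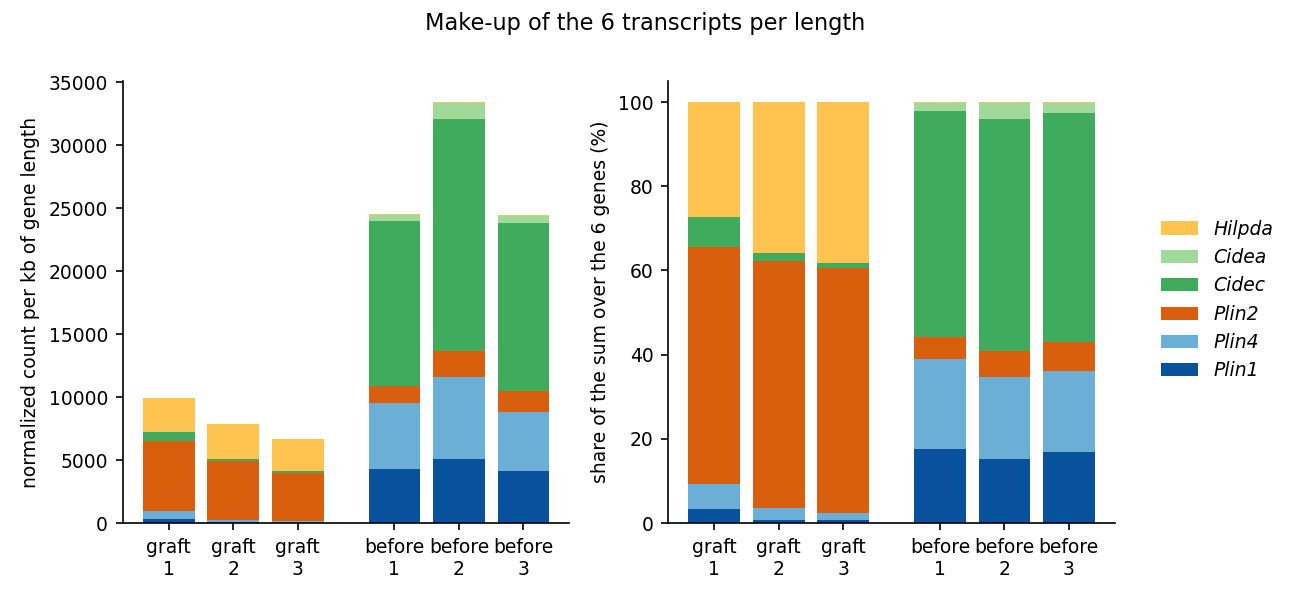
Stacked bars of the 6 genes in each library, as normalized counts per kilobase of gene model (first panel) and as percent of their sum (second panel), grafts at day 7 left and fat before grafting right. Plin2 and Hilpda lead in every graft, and Cidec leads in every library before grafting.

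Ratios between genes give the same shift in log2 units of normalized counts, without a scaling between libraries. Plin2 over Plin1 was 5.18 ± 1.30 in grafts and -1.85 ± 0.26 before grafting (SD, n = 3 each), a difference of 7.04. Hilpda over Plin2 was -2.46 ± 0.23 in grafts and -6.06 ± 0.26 before grafting. Plin4 over Plin1 was 1.68 ± 0.46 in grafts and 0.59 ± 0.07 before grafting, and Cidec over Plin1 was -0.19 ± 0.23 in grafts and 0.39 ± 0.13 before grafting. Cidea over Cidec was -8.29 ± 2.05 in grafts and -5.11 ± 0.50 before grafting, with a difference of -3.18 that became -1.13 at a pseudocount of 5, where its exact permutation p was 0.4. At a pseudocount of 1 the groups did not overlap in any of the 5 ratios (exact permutation p = 0.1 each, also after adjustment over the 5). How often ratios of other genes overlap was not computed. Of single tested genes 97.6% did not overlap, so this count says little by itself.

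Relatives of the 6 genes were read beside them. Plin5, which couples droplets to mitochondria, lies 1797 bases from Plin4 on the same strand and had 31.1, 8.73 and 13.8 normalized counts in grafts, against 114.4, 182.3 and 142.6 before grafting (log2 fold change -3.12, SE 0.44, limma adjusted p = 0.00135). Plin3, a perilipin found in most cells, averaged 1058 ± 41 in grafts and 765.3 ± 105.7 before grafting (log2 fold change 0.48, SE 0.12, limma adjusted p = 0.0299), a call lost under each of the other 5 scalings and turned to -0.27 when ribosomal protein genes are set to no change. Cideb, the CIDE gene of liver and intestine, had 1.00, 7.76 and 3.96 normalized counts in grafts and is listed at 0 before grafting, too low to be tested. Dffb, a DNase of the same domain family, had a log2 fold change of -0.56 (limma adjusted p = 0.111).

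Cidea is a gene of brown and beige fat, so the markers of those cells were read beside it. Cox8b, a subunit of cytochrome oxidase in brown fat, had 7.03, 0 and 42.5 normalized counts in grafts, against 365.8, 795.2 and 274.4 before grafting, and Kcnk3, a potassium channel, had 26.1, 14.5 and 12.9 in grafts, against 874.6, 1715 and 900.03 before grafting. Replicate 2 was the highest before grafting for both, as it was for all 6 droplet genes and for the fat cell index (12.93). The pattern is therefore not particular to Cidea and these markers. Among the brown and beige markers, Ppargc1a was highest in replicate 1 and Ucp1 in replicate 3. Of 12 markers 9 were tested, of which 7 passed the test as lower and 2 as higher in grafts (Zic1 and Dio2). All tested genes were called lower in 39.2% and higher in 41.3% of cases. Sums of the markers were 416.8 to 749.8 in grafts and 2599 to 4347 before grafting. Zic1 had 24.1, 199.8 and 322.5 in grafts and was listed at 0 before grafting (log2 fold change 6.88). Dio2 had 21.1, 109.6 and 94.0 in grafts, against 5.92, 7.09 and 2.95 before grafting (log2 fold change 3.35). Ucp1, the defining uncoupling protein, had 0, 1.94 and 0.989 in grafts, against 8.87, 9.12 and 24.6 before grafting, and was too low to be tested. The part of brown or beige fat cells in the Cidea values was not tested.

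Lipases of the droplet surface and the proteins that regulate or accompany them fell together. Of 12 such genes 11 were tested (G0s2 was not analysed here), with a median log2 fold change of -4.71. All 11 passed the test as lower in grafts, against 39.2% of all tested genes. Pnpla3, a relative of the main triglyceride lipase, had a log2 fold change of -9.68, Ces1d, a carboxylesterase of the droplet, -8.86 and Ces1f, its neighbour in the family, -6.34 (adjusted p = 1.78e-05, 7.41e-05 and 9.78e-05 in limma). Named after their values were seen, Pnpla2, the main triglyceride lipase, averaged 1681 ± 668 normalized counts in grafts and 42401 ± 7906 before grafting, and its activator Abhd5 averaged 810.1 ± 31.5 in grafts and 3632 ± 1056 before grafting. Their log2 fold changes were -4.71 and -2.13.

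Genes that build and enlarge droplets mostly fell. Of 14 genes 12 were tested, with a median log2 fold change of -1.55. Of the 12, 9 passed the test as lower, 2 as higher and 1 in neither direction. Among all tested genes 39.2% were called lower. Under most of the other 5 scalings 10 genes of the list were called lower. Clstn3, a calsyntenin gene that also encodes a fat cell form not separated here, had a log2 fold change of -5.30, Lpin1, a phosphatidate phosphatase, -4.97 and Agpat2, an acyltransferase whose loss causes lipodystrophy, -4.11 (adjusted p = 1.91e-05, 3.48e-06 and 5.72e-06 in limma). Lpin2, a second phosphatidate phosphatase, averaged 1770.2 ± 127.9 normalized counts in grafts and 436.3 ± 9.6 before grafting (log2 fold change 2.02, adjusted p = 5.15e-06). Pcyt1a, which makes the phosphatidylcholine of the droplet surface, had 0.69 (adjusted p = 0.00134), which turned to -0.05 with ribosomal protein genes at no change.

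Other droplet surface and contact proteins divided evenly, much as all tested genes did (41.3% called higher and 39.2% lower). Of 34 genes 25 were tested, with 12 called higher, 12 lower and 1 neither, and a median log2 fold change of 0.29, against 0.28 over all tested genes. With ribosomal protein genes at no change, 2 were called higher and 12 lower. Lpcat2, a phospholipid acyltransferase of droplets in inflammatory cells, had the highest log2 fold change of the list, 4.05, with 2006 ± 238 normalized counts in grafts and 126.4 ± 47.5 before grafting (SD, n = 3 each, limma adjusted p = 3.19e-05). Acsl4, an acyl-CoA synthetase that prefers arachidonate, had 1.45 and Sqle, an enzyme of sterol synthesis, 1.42, the second no longer called with ribosomal protein genes at no change. Mettl7b, a methyltransferase-like droplet protein, had -5.03 and Sncg, a synuclein of fat cells, -4.40. Of 7 caveola genes, whose proteins line the fat cell surface, 4 were tested. Ptrf, Sdpr and Prkcdbp were searched under those names only and not found. Ehd2, Cav2 and Cav1 were called lower, at -1.83, -1.66 and -1.59. Pacsin2 was called higher, at 0.45, and this call was lost under each of the other 5 scalings, with -0.30 when ribosomal protein genes are set to no change.

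**Figure D5:**
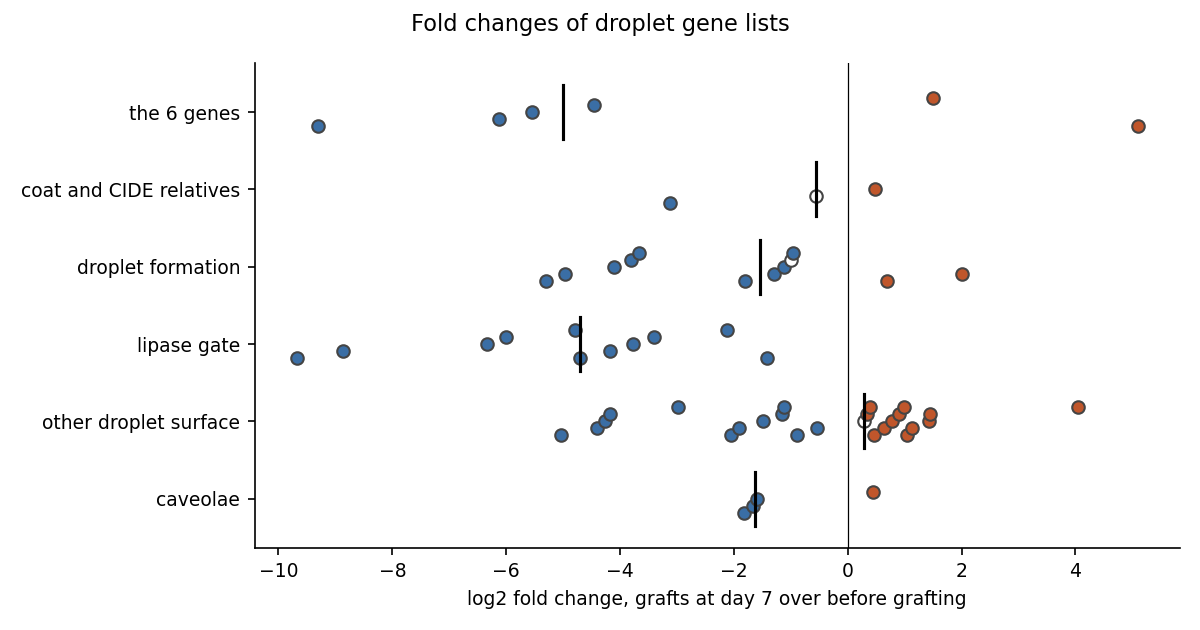
Log2 fold change (grafts at day 7 over before grafting) of each tested gene in the droplet gene lists and of the 6 genes, 1 point per gene (orange called higher, blue called lower, open not called), with a black bar at the median. The lipase genes lie wholly below 0, droplet formation mostly below 0, and other surface proteins on both sides.

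The genes whose 6 library values were most like those of each member were found among 7752 genes with a mean of at least 100 normalized counts, by the root mean square difference of log2 values centred on each gene's mean. For Plin4 they were Sncg (0.21), the fat cell hormone gene Retn (0.22) and Fabp4 (0.23), the fatty acid binding protein of fat cells. For Cidec they were Crtac1 (0.22), the fat cell protease gene Cfd (0.32) and Sucnr1 (0.34), a succinate receptor. Plin1 was nearest to Acaa1b (0.32), Zbtb16 (0.32) and Serpina3c (0.34). Cidea had only 1 gene within 0.5, Acsm5 (0.45), which was listed at 0 in grafts, and then Pnpla3 (0.97) and Tmem179 (1.02). Hilpda was nearest to Ccl7 (0.17), a chemokine that attracts monocytes, Adamts4 (0.20) and Pla2g7 (0.21), a macrophage phospholipase. Plin2 was nearest to Gab2 (0.12), Sema3f (0.13) and Slc35e4 (0.15).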

How the data were processed

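Per the submitters' processing notes, HISAT2 2.0.5 and Bowtie 0.12.2 were used, with mm9 and mm8 as builds, and no source names the counting program. The deposited table gives, for 12163 genes and 6 libraries, a signal that the authors made by dividing read counts by a size factor per library: in each library every value was a whole multiple of a step (0.96979 to 1.01304) within 0.01. The 6 per-library tables repeat it. Its coordinates are those of GRCm38: 12151 IDs were found in GENCODE vM21, 11744 with the same start and end. Gene lengths are those of the deposited table.

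Values were tested as log2(value + 1) with limma 3.58.1 (R 4.3.3), group means, a mean trend and a robust prior, for the 10854 genes with at least 10 in at least 3 libraries. The p-values were adjusted (Benjamini-Hochberg) over 55450 annotated genes with unlisted genes at 1, because the table holds few genes near a fold of 1. Fold changes are on this log2 scale and understate those of low genes. Genes relative to the fat cell index and ratios of genes were tested by exact permutation over the 6 libraries, a choice made for the index after seeing the data, because the fit over all genes gave an infinite prior (residual degrees of freedom 4). The fits were tested on simulated data in which most genes did not change, so that test does not cover a table like this one. The 6 genes, the lists and the rule for genes named were chosen with earlier results of these data known. The rule named at most the 3 called genes of each droplet list that changed most in the list's prevailing direction and 2 that moved oppositely, every relative, the 3 nearest profiles of each gene, and the markers Adipoq, Adgre1, Cd68, Trem2 and Ucp1. Other marker and hypoxia genes, Pnpla2 and Abhd5 were named after their values were seen. Figures used matplotlib 3.10.9. Alternatives are given under how the results depend on the processing. Depth was 13027776 to 15924559 reads in listed genes, so intervals cover counting error only.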

Additional observations from a re-analysis of the deposited data

How the results depend on the processing

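The direction and the call of all 6 genes were kept under every alternative in which the gene was tested. Log2 fold changes ranged from -6.42 to -4.98 for Plin1, 0.75 to 1.67 for Plin2, -5.20 to -3.90 for Plin4, -10.11 to -7.23 for Cidea, -7.00 to -5.45 for Cidec and 4.35 to 5.20 for Hilpda, and the largest adjusted p in limma was 0.0286, for Plin2. Leaving out a library before grafting drops Cidea below the filter, since it reaches 10 in those 3 libraries alone. With the filter at 2 libraries, chosen after seeing the data, Cidea was called in each such fit. Setting 78 ribosomal protein genes to no change lowered grafts by 0.74 on the log2 scale, took the genes called higher to 1898 and the share of calls that were higher to 25.3%, against 51.3% in the main test and 41.1% with equal upper quartiles. Leaving out 1 library in turn, genes called lower ranged from 2770, without replicate 3 before grafting, to 3978. A pseudocount of 5 moved Cidea over Cidec to -1.13 and Cidea relative to the index to -0.72. Without division by length the Plin2 share differed by 67.4 percentage points.

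Same-numbered libraries correlated at -0.16, -0.13 and 0.04 in their deviations from the group means, so no pairing by number was seen. So few values could miss a weak pairing. With a replicate block 3912 genes were called higher and 3644 lower, the 6 genes' calls being 2 higher and 4 lower as before. edgeR and DESeq2, planned as alternatives, were not run. A check of the unit did not accept the reads recovered from the values of graft 1 and graft 3 as counts. The Cidea reads and their interval rest on reads recovered in the same way, by dividing each value by its library's step. Depth limits Cidea in grafts, where 1 read was found in all.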
